A study of Mus musculus with 24 samples.

Results

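The protocadherin genes, taken as every gene whose only gene symbol in the probe annotation begins with Pcdh, made up 34 of the 19938 genes measured on the larger of 2 array platforms and 35 of the 18194 on the other. Each gene was represented by its single-symbol probe set with the highest mean signal over all arrays of that platform. On the larger platform 22 members were clustered genes, all of the beta family (Pcdhb1 to Pcdhb22), and 12 were non-clustered (Pcdh1, Pcdh7, Pcdh8, Pcdh9, Pcdh10, Pcdh11x, Pcdh12, Pcdh15, Pcdh17, Pcdh18, Pcdh19 and Pcdh20). The other platform held the same 34 genes and Pcdhgc4, a gene of the gamma cluster, which made 23 clustered and 12 non-clustered members. The alpha isoforms shared probe sets that carry several symbols, so none of them was a member.

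The study compared mouse cells that lack the transcriptional repressor REST with control cells along in vitro neuronal differentiation, by hybridizing total RNA to 24 Affymetrix arrays. On the larger platform all cells came from the Black Agouti 129 strain and formed 6 groups of 3 arrays: embryonic stem cells (ES) labelled RESTko (REST knock-out) or RESTwt (REST wildtype), neuronal progenitors (NP) with the same 2 labels, and terminal neurons (TN) labelled RESTko or RESThet (heterozygous REST knock-out). The control at TN therefore carried 1 altered REST allele, unlike the control at ES and NP. The other platform held wildtype cells of the mixed 129Sv-C57Bl/6 background, with 2 arrays each at ES, NP and TN. The deleted part of REST and the number of clones behind each genotype were not given in the sources used here. Arrays of a group are called biological replicates without a named culture or clone, so p-values measure the spread between arrays, which may be technical.

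Protocadherins are the largest group within the cadherin superfamily of cell adhesion proteins and are known above all from the nervous system. The clustered genes lie in tandem in the alpha, beta and gamma arrays of a single locus, and each neuron is known to transcribe a small choice of them through alternative promoters that bind CTCF, which gives neurons different adhesive surfaces. The non-clustered genes are scattered over the genome and mostly belong to the delta group, whose members act in axon growth, cell sorting and synapse formation. REST is known to repress neuronal genes outside neurons by binding the RE1 element.

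Promoter windows of RefSeq (build GRCm38.p6) were matched by symbol to 9 of the 35 members, all of them non-clustered. The 250 bases before the annotated start are shown for the 4 non-clustered genes that passed the test in a comparison of genotypes, with CpG dinucleotides in capitals: Pcdh8 at chr14:79771313-79771562 (minus strand), Pcdh15 at chr10:73821617-73821866 (plus strand), Pcdh18 at chr3:49757317-49757566 (minus strand) and Pcdh19 at chrX:133688994-133689243 (minus strand).
Pcdh8: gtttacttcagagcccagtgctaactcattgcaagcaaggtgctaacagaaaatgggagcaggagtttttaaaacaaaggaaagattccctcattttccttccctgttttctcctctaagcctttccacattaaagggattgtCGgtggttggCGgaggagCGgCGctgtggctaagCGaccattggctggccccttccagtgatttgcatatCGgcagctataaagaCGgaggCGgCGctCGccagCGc
Pcdh15: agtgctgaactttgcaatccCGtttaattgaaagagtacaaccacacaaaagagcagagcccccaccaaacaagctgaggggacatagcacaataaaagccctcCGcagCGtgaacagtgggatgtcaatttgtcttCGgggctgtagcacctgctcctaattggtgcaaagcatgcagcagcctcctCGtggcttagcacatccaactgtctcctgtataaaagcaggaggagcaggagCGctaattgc
Pcdh18: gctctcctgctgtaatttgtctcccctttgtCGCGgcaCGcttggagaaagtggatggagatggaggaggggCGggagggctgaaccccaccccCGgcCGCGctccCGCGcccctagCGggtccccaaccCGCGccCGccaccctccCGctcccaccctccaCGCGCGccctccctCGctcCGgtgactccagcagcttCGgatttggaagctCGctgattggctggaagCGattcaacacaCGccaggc
Pcdh19: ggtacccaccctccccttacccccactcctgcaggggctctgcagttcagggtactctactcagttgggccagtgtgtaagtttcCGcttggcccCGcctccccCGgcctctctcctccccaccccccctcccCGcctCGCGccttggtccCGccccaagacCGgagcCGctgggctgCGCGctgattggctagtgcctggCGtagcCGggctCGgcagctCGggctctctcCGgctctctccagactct
These stretches held 11 CpG in Pcdh8, 6 in Pcdh15, 23 in Pcdh18 and 16 in Pcdh19. In the whole window of 300 bases, which runs on for 50 bases past the start, the count was 14 for Pcdh8, 8 for Pcdh15, 23 for Pcdh18 and 18 for Pcdh19, beside a median of 7 over all 32851 windows of the table. Pcdh17 held 26 CpG and Pcdh10 held 24, while Pcdh20 held 4. The left and right parts of the RE1 element, searched as TTCAGCACC and GACAGCGCC on both strands, stood in 0.37% and 0.33% of all windows and in 0 of the 10 windows of members, which says only that these letters are not in these windows.

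Values are log2 signals as the authors deposited them. On the larger platform the median signal of an array lay between 5.02 and 5.07 in ES cells and between 5.41 and 5.49 in neurons, and arrays of a group correlated at 0.992 to 0.998 over genes. The stage labels were borne out by markers: the mean signal of 8 ES cell markers per array was 10.7 to 10.9 at ES and at most 7.40 later, and that of 8 neuronal markers was at most 6.74 at ES and at least 10.4 at TN. Fibroblast markers also gave signal at TN, with a mean over 6 markers of 9.15 to 9.65 per array, beside at most 4.58 at ES. Means of 4 astrocyte markers were 5.38 to 5.99 per array at TN, beside at most 4.39 at ES and 3.43 at NP. Those of 4 oligodendrocyte markers were 6.24 to 7.55 at TN, beside at most 5.26 at ES and 5.58 at NP. The probe set of Rest went against the labels at TN. Its log2 signal was 8.95, 8.99 and 8.95 in ES RESTwt and 8.63, 8.53 and 8.66 in ES RESTko, but 7.28, 7.38 and 7.46 in TN RESTko and 7.02, 7.01 and 7.07 in TN RESThet. The arrays labelled RESTko were thus lower at ES (−0.36, limma adjusted p = 0.0023) and higher at TN (0.34, adjusted p = 0.019), with a difference of −0.01 at NP (adjusted p = 0.96). Where this probe set lies relative to the deleted part was not given in the sources used here, so directions below are those of the arrays labelled RESTko.

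**Figure D1:**
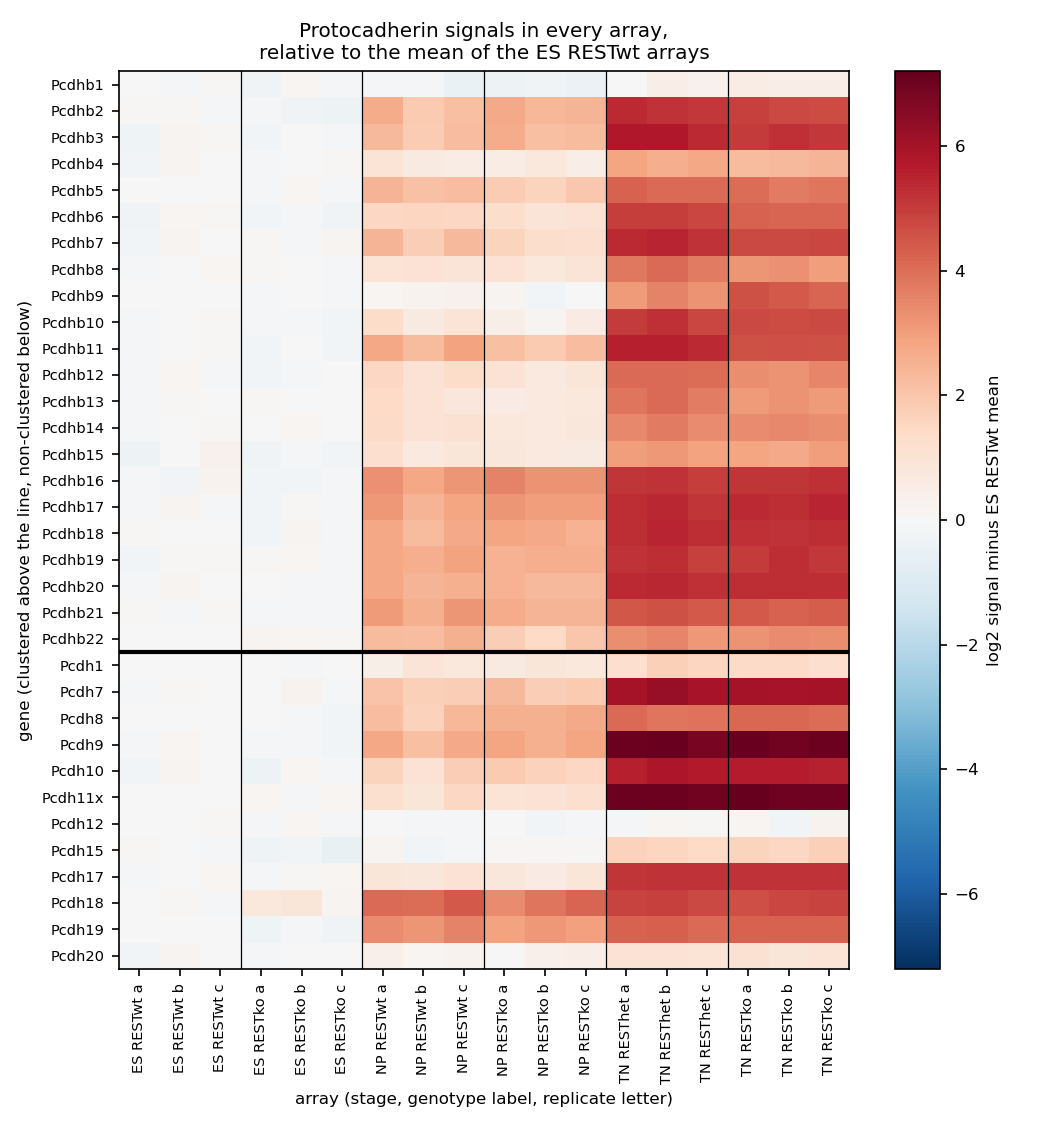
Log2 signal of the 34 protocadherin genes (rows, clustered above the line) in each of the 18 arrays (columns), as the difference from the gene's mean over the 3 ES RESTwt arrays; red is higher, blue is lower. ES columns are pale, and most rows darken at NP and again at TN, while Pcdh12 and Pcdhb1 stay close to their ES level.

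Most protocadherin signals were low in ES cells and rose from ES to NP and again from NP to TN. Between ES RESTwt and NP RESTwt, 20 of 22 clustered and 9 of 12 non-clustered genes rose and none fell, on a background of 67.1% of all genes that passed the test and 31.0% that rose. A gene is called, and said to rise or fall, at a Benjamini-Hochberg adjusted p under 0.05 in limma's two-sided test over all genes. The median difference was 2.16 for clustered and 1.32 for non-clustered genes on the log2 scale, beside −0.07 for all genes. In these bulk samples a change in the share of cells that express a gene and a change in RNA per cell cannot be told apart. With each array centred on its median signal, which moves the median of all genes from −0.07 to −0.40, 29 members still rose and 3 fell. In that setting 16172 of all 19938 genes were called in either direction.

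Pcdh18 and Pcdh19, delta genes that function in cell adhesion and sorting, rose most among the non-clustered genes. Pcdh18 read 4.26, 4.34 and 4.17 in the 3 ES RESTwt arrays and 8.35, 8.25 and 8.66 in NP RESTwt, a difference of 4.16 (SE 0.17). Pcdh19, the gene mutated in a female-limited epilepsy in humans, read 3.95, 3.94 and 3.93 in ES RESTwt and 7.37, 7.14 and 7.52 in NP RESTwt, a difference of 3.40 (SE 0.09). Both had gained most of their rise by the progenitor stage: Pcdh18 read 9.13, 9.20 and 9.02 and Pcdh19 8.20, 8.27 and 8.01 in TN RESThet, differences from NP RESTwt of 0.70 and 0.81.

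Pcdh9, Pcdh8, Pcdh7 and Pcdh10 also rose at NP, by 2.56, 2.08, 1.85 and 1.46. Pcdh9 read 3.50, 3.79 and 3.70 in ES RESTwt and 6.43, 5.81 and 6.41 in NP RESTwt. Pcdh8, known for activity-dependent removal of N-cadherin from synapses, read 3.99, 4.0 and 3.95 and then 6.18, 5.64 and 6.37. For both genes every NP array was above every ES array. Pcdh7 read 3.60, 3.72 and 3.66 in ES RESTwt and 5.72, 5.40 and 5.41 in NP RESTwt, and Pcdh10, a regulator of axon growth and synapse elimination, read 3.40, 3.82 and 3.63 and then 5.2, 4.64 and 5.38. These groups did not overlap either.

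Among the clustered genes the largest rise at NP was that of Pcdhb16, from 3.18, 3.07 and 3.48 to 6.52, 6.04 and 6.44, a difference of 3.09 (SE 0.12). Pcdhb21 rose from 2.80, 2.57 and 2.80 to 5.77, 5.30 and 5.92, and Pcdhb17 from 2.51, 2.82 and 2.55 to 5.74, 5.06 and 5.47. Array b of NP RESTwt was the lowest of its group for all 3 genes. Pcdhb19, Pcdhb11 and Pcdhb20 rose by 2.77, 2.66 and 2.60, and the other called beta genes by 0.73 (Pcdhb4) to 2.58 (Pcdhb18). The members that were not called were Pcdhb1, with a difference of −0.24, Pcdhb9 with 0.23, Pcdh12 with −0.09, Pcdh15 with −0.03 and Pcdh20 with 0.25 (adjusted p = 0.052).

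The step from progenitors to neurons was called for almost every member. From NP RESTwt to TN RESThet all 22 clustered and 11 of 12 non-clustered genes rose and none fell, on a background of 73.1% called and 43.2% that rose, with median differences of 2.77 and 1.73 beside 0.14 for all genes. Pcdh12, known from endothelial cells, was the exception, with signals of 4.75 to 5.21 in all 12 arrays at NP and TN. The endothelial and blood markers averaged at most 3.98 in any TN array. The order of the genes differed from that at NP. Pcdh11x, the delta gene on the X chromosome, read 4.18, 3.92 and 4.50 in NP RESTwt and 10.08, 10.10 and 9.98 in TN RESThet, the largest difference of any member (5.86, SE 0.13).

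Pcdh9, Pcdh17, Pcdh10 and Pcdh7 followed with differences of 4.45, 4.27, 4.24 and 4.20. Pcdh9 reached 10.72, 10.77 and 10.52 in TN RESThet. Pcdh17, which functions at synapses of the basal ganglia, went from 5.54, 5.47 and 5.69 to 9.80, 9.88 and 9.84, and Pcdh10 reached 9.23, 9.42 and 9.31. At NP these 4 genes had risen by 0.92 (Pcdh17) to 2.56 (Pcdh9), less than Pcdh18 and Pcdh19. Pcdh7 reached 9.65, 9.92 and 9.57, and Pcdh8 reached 8.07, 7.85 and 7.88, a difference of 1.87. Pcdh15, a component of the tip links of sensory hair cells, rose by 1.58 in the probe set used and by 4.10 in its other probe set, Pcdh1 by 0.77 and Pcdh20 by 0.75.

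Pcdhb10 had the largest rise of the clustered genes at this step, from 4.36, 3.71 and 4.04 in NP RESTwt to 8.10, 8.29 and 7.87 in TN RESThet (4.05, SE 0.14). Pcdhb3 rose by 3.51, from 5.41, 4.94 and 5.32 to 8.86, 8.86 and 8.48, and Pcdhb6 by 3.42. Pcdhb7, Pcdhb9 and Pcdhb2 rose by 3.15, 3.06 and 2.98. Pcdhb9 had read 2.26 to 2.76 in the 6 NP arrays of both genotypes, and 2.29 to 2.45 in the 6 ES arrays, and was not called from ES to NP. Pcdhb2 and Pcdhb15, with Pcdhb16 the clustered genes of highest mean signal, rose at both steps: Pcdhb2 from 3.52, 3.53 and 3.32 over 6.12, 5.36 and 5.65 to 8.83, 8.68 and 8.57, and Pcdhb15 from 4.19, 4.57 and 4.83 over 5.75, 5.26 and 5.4 to 7.52, 7.64 and 7.42. The smallest rise was that of Pcdhb1 (0.50), the first gene of the beta array; it was not called after quantile normalization, where the difference was 0.25. Pcdhb22 rose by 0.98, after a rise of 2.34 at NP.

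**Figure D2:**
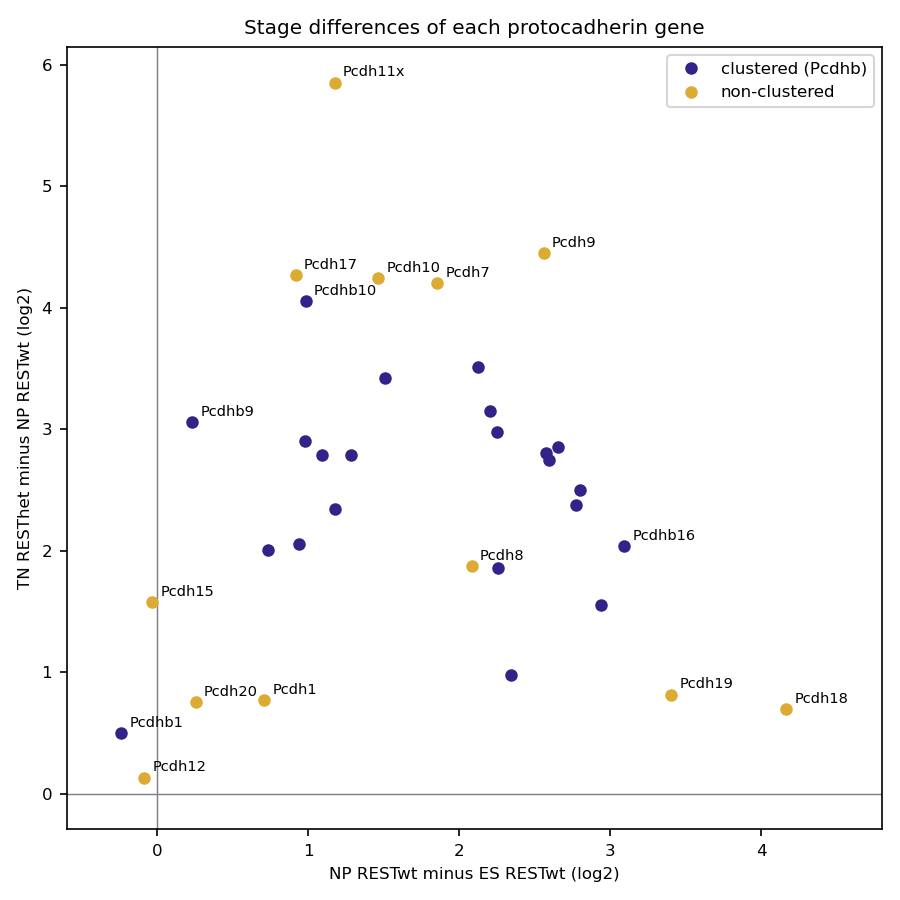
Each point is a protocadherin gene; the horizontal axis is its log2 difference between NP RESTwt and ES RESTwt, the vertical axis that between TN RESThet and NP RESTwt (means of 3 arrays each). Both axes use the same NP RESTwt arrays, with opposite sign, so the slope of the cloud is not a result; Pcdh18 and Pcdh19 lie far right and low, Pcdh11x and Pcdh17 high and left, and Pcdh12 near the origin.

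In the arrays labelled RESTko the steps were called as often. From ES to NP, 20 of 22 clustered and 11 of 12 non-clustered genes rose and none fell, on a background of 66.0% called and 32.2% that rose. The medians were 1.46 for clustered and 1.41 for non-clustered genes, beside −0.04 for all genes. Pcdhb16, Pcdhb17, Pcdhb2 and Pcdhb18 rose by 3.54, 3.15, 2.80 and 2.73, and Pcdh19, Pcdh18, Pcdh9 and Pcdh8 by 3.25, 3.21, 2.89 and 2.72. With the median of each array set to 0, 28 members rose and 2 fell, beside 16121 of all 19938 genes called in either direction. Pcdh20, called as higher (0.34 without centring), then had a difference of −0.0082. From NP to TN, 22 clustered and 11 non-clustered genes rose, on a background of 71.0% called and 41.8% that rose, with medians of 2.48 and 1.51 beside 0.13 for all genes. Pcdhb9 and Pcdhb10 led the clustered genes with 4.37 and 4.31, and Pcdh11x, Pcdh17 and Pcdh9 the others with 6.03, 4.46 and 4.30. In the arrays labelled RESTko, Pcdhb16 read 3.06, 3.02 and 3.09 at ES, 6.81, 6.49 and 6.5 at NP and 8.40, 8.41 and 8.49 at TN, and Pcdh11x read 3.19, 2.86 and 3.18, then 4.03, 4.06 and 4.26, then 10.38, 10.02 and 10.03. These steps share their NP arrays with the comparison of genotypes at NP.

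The mixed-strain wildtype course was measured with other probes and 2 arrays a stage. From ES to NP, 7 of 23 clustered and 4 of 12 non-clustered genes rose and none fell, on a background of 38.9% called and 19.9% that rose. Pcdh19 read 3.53 and 3.36 at ES and 6.50 and 7.52 at NP, Pcdh8 2.64 and 2.85 and then 5.87 and 6.38, and Pcdh18 3.76 and 3.22 and then 6.12 and 6.10. Pcdh9 rose by 1.08; averaged over its probe sets the difference was 0.32 and not called. Pcdhb21 and Pcdhb17 led the clustered genes, from 2.65 and 2.58 to 4.44 and 4.39 and from 2.65 and 2.65 to 4.06 and 4.43, and Pcdhb16, Pcdhb20, Pcdhb3 and Pcdhb22 rose by 1.14, 0.95, 0.78 and 0.76. Pcdhb11 rose by 0.48 (adjusted p = 0.045), a call that was lost on leaving out any 1 of the 4 arrays, with differences of 0.41 to 0.54.

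From NP to TN, 15 clustered and 8 non-clustered genes rose in this course and 1 non-clustered gene fell, on a background of 50.8% called, 21.7% that rose and 29.1% that fell. Pcdh17 went from 2.57 and 2.77 to 8.96 and 8.72, Pcdh11x from 2.91 and 2.75 to 8.95 and 8.75 and Pcdh9 from 4.59 and 4.50 to 10.17 and 10.20, so these 3 genes had the largest differences (6.17, 6.01 and 5.64). Pcdh7, Pcdh8, Pcdh10 and Pcdh19 rose by 3.55, 2.99, 2.95 and 2.19. Pcdhb3 rose by 4.09, from 3.47 and 3.56 to 7.66 and 7.55, and Pcdhb7 by 3.69, from 2.70 and 2.52 to 6.51 and 6.09. Pcdhb20, Pcdhb21, Pcdhb17 and Pcdhb16 rose by 2.42, 2.23, 2.04 and 1.98, and Pcdhgc4, a gamma gene known to matter for neuronal survival, went from 3.25 and 3.64 to 4.95 and 5.23 (1.65). Pcdh1 fell from 4.56 and 4.09 to 3.30 and 3.49 (−0.93, adjusted p = 0.0017), whereas on the larger platform it rose by 0.77 and 0.56 at this step. All 23 clustered members of this platform had a mean below that of the median gene, as did 21 of 22 on the larger one, and the groups of Pcdhb6, Pcdhb13, Pcdhb14 and Pcdhb18 read 2.29 to 3.29 at all stages.

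At ES few members were called between the genotypes. No clustered gene was called by limma, and 0 of 22 had an unadjusted p under 0.05, with differences of −0.25 to 0.13 and a median of −0.07 beside −0.03 for all genes, and 1 non-clustered gene rose and 1 fell, on a background of 9.24%. Pcdh18 read 4.26, 4.34 and 4.17 in RESTwt and 5.0, 5.14 and 4.46 in RESTko, a difference of 0.61 (SE 0.17, adjusted p = 0.033), and all 3 RESTko arrays were above all 3 controls. Pcdh15 read 5.03, 5.0 and 4.86 in RESTwt and 4.65, 4.77 and 4.44 in RESTko (−0.34, SE 0.10, adjusted p = 0.042), again without overlap, but its other probe set differed by −0.01. Groups did not overlap for 2 clustered and 4 non-clustered genes, beside 29.4% of all genes. Of the 22 clustered genes 21 had a mean over all arrays below that of the median gene, and most rose after ES. Whether the low signals at ES had a part in the lack of calls was not tested. Neuronal markers rose in 5 of 8 genes at this stage, with array means of 6.51 to 6.74 in RESTko and 5.89 to 5.93 in RESTwt. Of 7 endoderm and epithelium markers Krt8 (1.60) and Krt18 (1.55) rose, with means of 5.74 to 5.98 in RESTko and 5.29 to 5.55 in RESTwt. Of 8 progenitor markers Nes (0.75) and Prom1 (0.45) rose, with means of 6.04 to 6.19 and 5.85 to 5.96. Of 8 ES cell markers Zfp42 (−0.99) and Fgf4 (−0.60) fell, with means of 10.70 to 10.74 and 10.87 to 10.92, and 1 of 4 oligodendrocyte markers fell (Olig1, −0.84). Zfp42 lies on chromosome 8, as do 250 of the 808 genes that were lower at ES. The part of these markers in the result was not tested. Both calls lay near the threshold, and each was lost on leaving out any 1 of several arrays. The adjusted p of Pcdh18 reached 0.13 and 0.15 without RESTko replicate a or b and 0.064 to 0.12 without any 1 control array. That of Pcdh15 reached 0.093 and 0.20 without RESTko replicate a or c and 0.052 to 0.13 without any 1 control array. With an ES array left out, 1190 to 1777 of all genes were called, beside 1842 in the full fit.

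At NP the arrays labelled RESTko were lower for a large share of the beta genes. Of 22 clustered genes 9 fell and none rose, and of 12 non-clustered genes Pcdh8 rose and Pcdh19 fell, on a background of 8.03% called, 4.32% higher and 3.71% lower. The median difference was −0.21 for clustered and 0.04 for non-clustered genes, beside 0.01 for all genes. The groups did not overlap for 8 clustered and 2 non-clustered genes, beside 21.9% of all genes.

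Pcdhb7 had the largest difference: it read 5.57, 4.89 and 5.44 in RESTwt and 4.69, 4.37 and 4.33 in RESTko (−0.84, SE 0.15, adjusted p = 0.0018). Pcdhb22, the last gene of the beta array, read 5.82, 5.76 and 6.09 in RESTwt and 5.34, 4.98 and 5.51 in RESTko (−0.61, SE 0.12, adjusted p = 0.0039). Pcdhb11 read 5.99, 5.48 and 6.06 and then 5.35, 5.06 and 5.41 (−0.57, adjusted p = 0.0082). In each of the 3 genes every RESTko array lay below every control array. Pcdhb10 fell from 4.36, 3.71 and 4.04 to 3.49, 3.27 and 3.65 (−0.56, adjusted p = 0.015), and Pcdhb5 from 5.40, 5.03 and 5.13 to 4.73, 4.53 and 4.86 (−0.48, adjusted p = 0.0093).

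The remaining 4 called beta genes had smaller differences of −0.42 to −0.44. Pcdhb6 read 4.73, 4.75 and 4.70 in RESTwt and 4.47, 4.12 and 4.28 in RESTko, and Pcdhb14 read 4.29, 3.95 and 3.99 and then 3.66, 3.58 and 3.72. Pcdhb12 read 4.81, 4.34 and 4.66 and then 4.38, 4.0 and 4.17, and Pcdhb21 5.77, 5.30 and 5.92 and then 5.39, 5.16 and 5.19. The groups of Pcdhb12 and Pcdhb21 overlapped by 1 control array, replicate b. Pcdhb13 lay just past the threshold (−0.40, adjusted p = 0.059). The other beta genes ranged from −0.21 to 0.29, with Pcdhb2, Pcdhb17, Pcdhb16 and Pcdhb3 on the higher side and not called. The beta genes share long stretches of sequence and the arrays' probes were not checked for cross-hybridization, so a difference of 1 beta gene may hold signal of its neighbours.

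Pcdh8 read 6.18, 5.64 and 6.37 in NP RESTwt and 6.53, 6.56 and 6.69 in NP RESTko (0.53, SE 0.13, adjusted p = 0.015). Pcdh19 read 7.37, 7.14 and 7.52 and then 6.83, 7.06 and 6.90 (−0.41, SE 0.09, adjusted p = 0.011). Neither gene's groups overlapped. The other 10 non-clustered genes were not called, among them Pcdh18 with a difference of −0.34.

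The calls at NP rest on the spread shared among all 18 arrays: in a fit of the 6 NP arrays alone 0 of the 34 members were called (12 had an unadjusted p under 0.05), with adjusted p of 0.051 for Pcdhb7, 0.075 for Pcdhb22 and 0.12 for Pcdhb11. Calls over all 19938 genes also became fewer, from 1602 in the fit of all 18 arrays to 549 in the fit of the NP arrays alone. Without NP RESTko replicate b, 5 members were called, beside 1256 of all 19938 genes. The adjusted p then rose to 0.053 for Pcdhb5, 0.068 for Pcdhb6, 0.076 for Pcdhb10, 0.14 for Pcdhb12, 0.057 for Pcdhb14 and 0.12 for Pcdhb21. Without NP RESTwt replicate a it was 0.063 for Pcdhb10, 0.12 for Pcdhb12, 0.060 for Pcdhb14 and 0.11 for Pcdhb21; Pcdhb12 and Pcdhb21 were also lost without replicate c of either genotype (adjusted p of 0.077 to 0.18). Pcdh8 was lost without RESTko replicate c (0.056) or RESTwt replicate b (0.051), and Pcdh19 without RESTko replicate a (0.068) or RESTwt replicate c (0.060).

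Markers of cell types moved with this comparison. The neuronal markers rose in 6 of 8 genes, and their mean per array was 8.70 to 9.10 in NP RESTko and 7.73 to 8.47 in NP RESTwt; the fibroblast markers fell in 3 of 6 genes (Col1a2, Dcn and Lum), with means of 5.32 to 5.73 and 5.78 to 6.46. Of 7 endoderm and epithelium markers Gata4 (0.72) rose and Krt8 (−0.97) and Krt18 (−0.87) fell, with means of 6.86 to 7.03 in NP RESTko and 6.90 to 7.55 in NP RESTwt. Of 5 endothelial and blood markers Cdh5 (−0.90) fell, with means of 4.18 to 4.47 and 4.49 to 4.66, and of 8 ES cell markers Fgf4 (−0.33) fell, with means of 5.95 to 7.08 and 6.45 to 7.40. Cdh5 lies on chromosome 8. The oligodendrocyte markers held no called gene, with means of 5.46 to 5.58 in NP RESTko and 5.23 to 5.35 in NP RESTwt. The part of these markers in the protocadherin differences was not tested. Chromosome 8 held 295 of the 740 genes that were lower at NP and 250 of the 808 that were lower at ES, with a median difference of −0.18 and −0.17 over its 961 measured genes. At TN 8 of its genes were lower and 2 higher (median −0.04). No protocadherin member lies on it. Of 740 other measured genes on the X chromosome, which holds Pcdh11x and Pcdh19, 99 were lower and 21 higher at ES (median −0.10). At NP 19 of these were lower and 24 higher (median −0.005). The cause was not tested for either chromosome. Of the 448 other genes on the chromosome of the clusters 21 rose and 19 fell with a median of 0.02, and of the 38 other genes within 1 Mb of the clusters 3 rose and 2 fell.

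**Figure D3:**
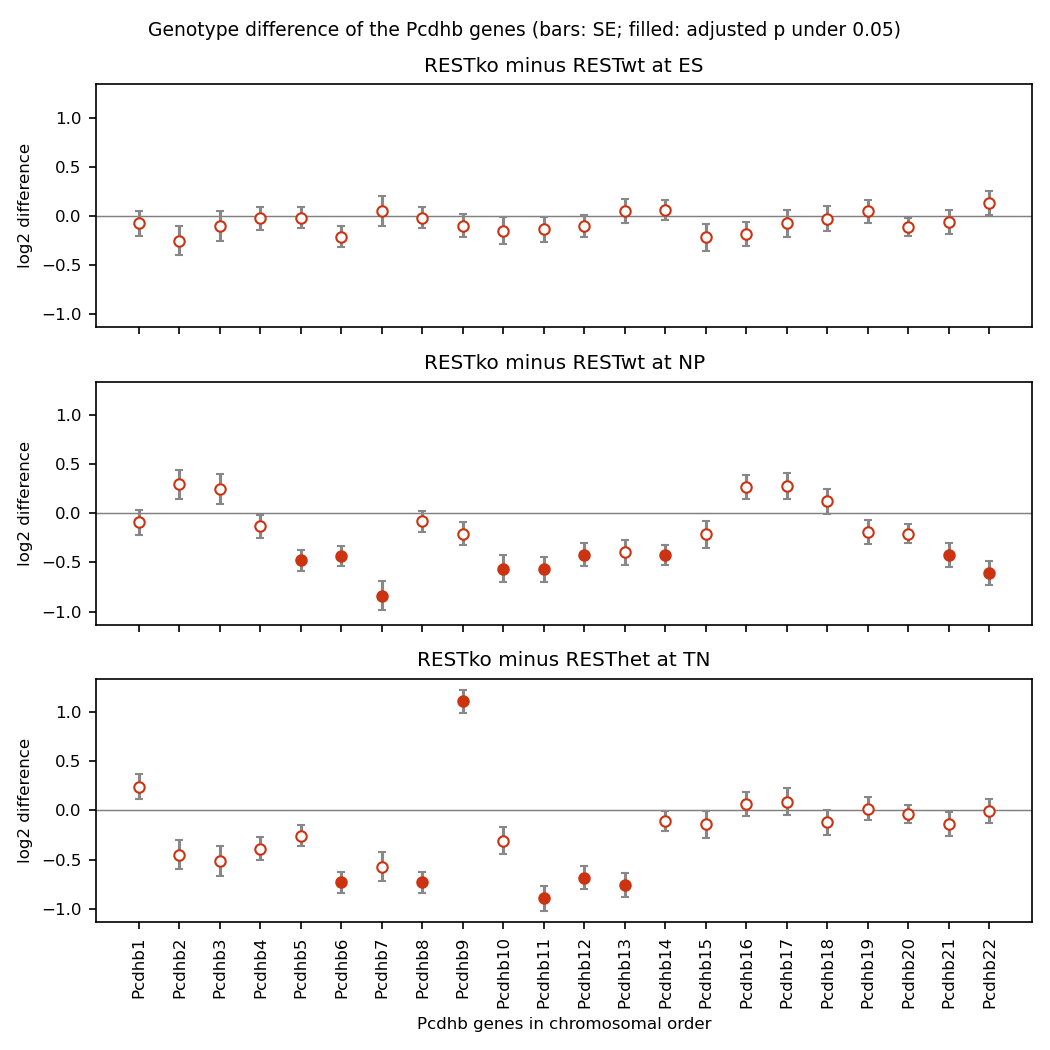
Log2 difference between the arrays labelled RESTko and their controls for the 22 Pcdhb genes in their order along the chromosome, at ES, NP and TN (3 arrays a group); bars are standard errors and filled points have an adjusted p under 0.05. At ES all points lie near 0, at NP 9 genes are lower, and at TN Pcdhb9 is the only filled point above 0.

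At TN all called members were beta genes, and 1 of them was higher in the arrays labelled RESTko. Pcdhb6, Pcdhb8, Pcdhb11, Pcdhb12 and Pcdhb13 fell and Pcdhb9 rose, and none of the 12 non-clustered genes was called by limma (0 had an unadjusted p under 0.05), with differences of −0.15 to 0.13. The background was 1.16% of all genes called, 0.356% higher and 0.802% lower. The median difference was −0.20 for clustered and 0.02 for non-clustered genes, beside −0.02 for all genes, and groups did not overlap for 13 clustered and 0 non-clustered genes, beside 16.0% of all genes.

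Pcdhb9 read 5.49, 5.98 and 5.69 in TN RESThet and 7.01, 6.83 and 6.64 in TN RESTko (1.11, SE 0.12, adjusted p = 4.7e-05), with every RESTko array above every control. Pcdhb11 read 8.78, 8.76 and 8.55 in RESThet and 7.78, 7.85 and 7.78 in RESTko (−0.89, SE 0.13, adjusted p = 0.00093). Pcdhb13 read 7.20, 7.38 and 7.03 and then 6.37, 6.58 and 6.38 (−0.76, adjusted p = 0.0041). In both genes every RESTko array lay below every control array. Pcdhb6 fell from 8.21, 8.20 and 8.03 to 7.45, 7.41 and 7.38, Pcdhb8 from 7.48, 7.79 and 7.43 to 6.86, 6.95 and 6.70, and Pcdhb12 from 7.40, 7.41 and 7.36 to 6.70, 6.58 and 6.85. Their differences were −0.73 (adjusted p = 0.00091), −0.73 (adjusted p = 0.0014) and −0.68 (adjusted p = 0.0048).

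Among beta genes that were not called, Pcdhb7 had a difference of −0.57 (adjusted p = 0.081), Pcdhb3 −0.51, Pcdhb2 −0.45 and Pcdhb4 −0.39, and in each the groups did not overlap. All 6 calls remained on leaving out any single array; with the 6 TN arrays fitted alone, Pcdhb8 was lost (adjusted p = 0.059). The fibroblast markers, at means of 9.36 to 9.65 per array in RESTko and 9.15 to 9.60 in RESThet, and the neuronal markers, at 10.4 to 10.6 and 10.5 to 10.7, held no gene called by limma (3 of 6 and 1 of 8 had an unadjusted p under 0.05). Markers of neural progenitors fell in 1 of 8 genes, with means of 7.08 to 7.46 in RESTko and 7.42 to 7.88 in RESThet. Oligodendrocyte markers had means of 6.24 to 6.85 in RESTko and 6.79 to 7.55 in RESThet. Those of endothelial and blood markers were 3.88 to 3.90 and 3.92 to 3.98, and those of endoderm and epithelium markers 5.30 to 5.62 and 5.06 to 5.33. The part of these markers was not tested. Of the 448 other genes of the chromosome 2 rose and 2 fell.

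**Figure D4:**
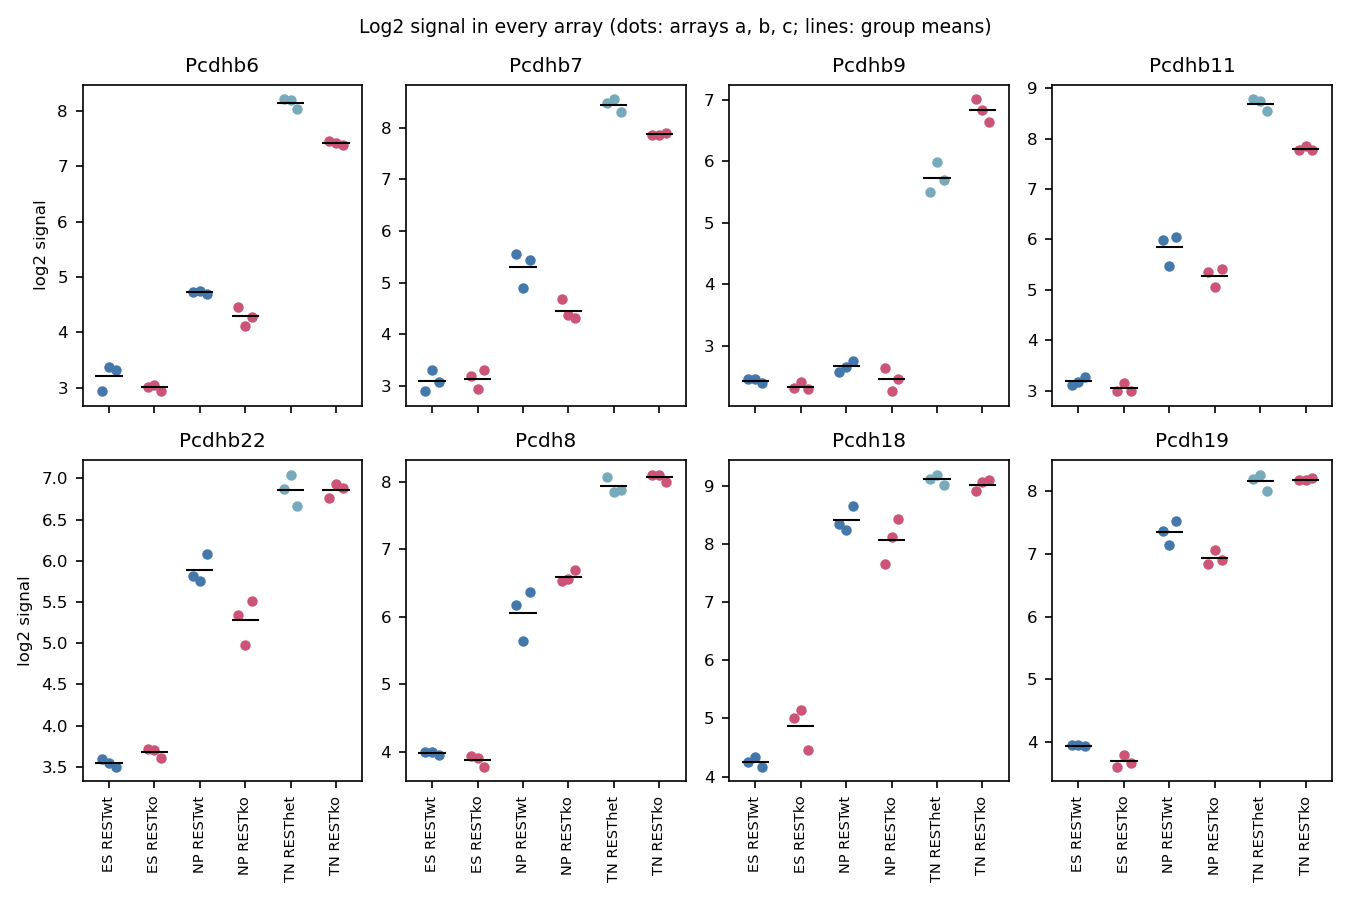
Log2 signal in each array (dots, replicates a, b and c) and group mean (line) for 8 protocadherin genes across the 6 groups of the larger platform; each panel has its own vertical axis, which does not start at 0. Pcdhb9 is the gene whose RESTko arrays lie above the controls at TN, and the RESTko arrays of Pcdhb6 and Pcdhb11 lie below the controls at NP and TN.

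Of the beta genes, Pcdhb6, Pcdhb11 and Pcdhb12 fell at both NP and TN, which is 30% of the 10 members lower at NP and 60% of the 5 lower at TN. Of all genes, 3.71% were lower at NP and 0.802% at TN, and the share lower at both was not counted. The comparisons share no array, but the number of clones was not given and beta probes may hold signal of neighbouring genes. Whether a genotype difference itself changed between stages was tested as an interaction. From ES to NP it fell for Pcdh18 (−0.95, SE 0.24, adjusted p = 0.031), Pcdhb7 (−0.89, SE 0.21, adjusted p = 0.021) and Pcdhb22 (−0.75, SE 0.17, adjusted p = 0.016), on a background of 4.87%. Pcdh18 was 0.61 higher at ES and 0.34 lower at NP, where it read 8.35, 8.25 and 8.66 in RESTwt and 7.66, 8.12 and 8.44 in RESTko. Pcdh8 (0.64, adjusted p = 0.051) and Pcdhb14 (−0.49, adjusted p = 0.059) lay just past the threshold.

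From NP to TN the genotype difference rose for Pcdhb9 (1.32, SE 0.17, adjusted p = 0.00016) and fell for Pcdhb8 (−0.65, SE 0.15, adjusted p = 0.023), on a background of 3.91%. Pcdhb9 had differed by −0.21 at NP, with 2.58, 2.66 and 2.76 in RESTwt and 2.64, 2.26 and 2.46 in RESTko, and Pcdhb8 by −0.08, with 4.69, 4.71 and 4.61 and then 4.73, 4.42 and 4.60. Signals of Pcdhb9 at NP were about as low as at ES, and the part of low signal in this change was not tested. Pcdhb2 (−0.74, adjusted p = 0.051), Pcdhb22 (0.61, adjusted p = 0.056) and Pcdhb3 (−0.76, adjusted p = 0.057) lay just past the threshold. The interactions of Pcdhb9 and Pcdhb22 (ES to NP) passed the threshold in every alternative run. Those of Pcdh18 and Pcdhb7 were lost in the fit of the compared groups alone (adjusted p of 0.073 and 0.053) and on leaving out any 1 of several arrays (0.051 to 0.087 for Pcdh18, without NP RESTko a or b, NP RESTwt c, ES RESTko a or b, or ES RESTwt a or c; 0.051 to 0.056 for Pcdhb7, without NP RESTko b or c, NP RESTwt c, ES RESTko a or c, or ES RESTwt a). That of Pcdhb8 was lost in the fit of the compared groups alone (0.0501) and without NP RESTko a, TN RESTko c or TN RESThet b (0.053 to 0.067).

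The called beta genes were not spread evenly along the array, whose symbol numbers follow the order on the chromosome. In the run from Pcdhb5 to Pcdhb14, bounded after the values were seen, all 10 genes had a negative difference at NP and 7 fell (median −0.43), and at TN 9 had a negative difference, 5 fell and 1 rose (median −0.63). In the 8 genes from Pcdhb15 to Pcdhb22, 2 fell at NP (median −0.20) and 0 were called at TN (median −0.02). The 4 genes from Pcdhb1 to Pcdhb4 held no call at either stage, with medians of 0.08 at NP and −0.42 at TN. At ES the same 3 runs had medians of −0.06, −0.07 and −0.09. Since the limits of the runs were set on these values, the contrast between them has no test.

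Genes that act with the protocadherins were counted from lists. Of 22 measured genes for promoter choice and chromatin of the clusters, 1 rose and 2 fell at ES, beside 9.24% of all genes called, and 0 rose and 2 fell at NP, beside 8.03%; at TN limma called 0, beside 1.16%, and 2 had an unadjusted p under 0.05. Ctcf, whose product binds the promoters and enhancers of the clusters, fell by 0.23 at ES (adjusted p = 0.037) and by 0.23 at NP (adjusted p = 0.041), from 9.52 to 9.66 in NP RESTwt to 9.31 to 9.45 in NP RESTko. Mau2, a subunit of the cohesin loader, fell by 0.55 at ES and by 0.26 at NP, and Dnmt3a, a de novo DNA methyltransferase, rose by 0.41 at ES. Ctcf and Mau2 lie on chromosome 8. At TN the largest differences of the list, which were not called, were those of Dnmt3b (−0.85) and Uhrf1 (−0.23). Across stages more genes of the list fell than rose: from NP RESTwt to TN RESThet 2 of its genes rose and 16 fell, beside 73.1% of all genes called, led by Uhrf1 (−3.55), Dnmt3l (−1.59), Wapl (−1.39) and Pds5a (−1.21). From ES RESTwt to NP RESTwt 5 rose and 12 fell, beside 67.1% called, led by Dnmt3l (−3.29), Dnmt3b (−2.03), Dnmt3a (1.65) and Wapl (−1.13).

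Of 19 intracellular partners of protocadherins, 1 rose at ES (Fyn, a Src-family kinase, 0.43), 3 rose at NP (the receptor kinase Ret 0.44, the WAVE complex subunit Wasf3 0.37 and Fyn 0.26) and none fell at either stage, beside 9.24% and 8.03% of all genes called. At TN limma called 0, beside 1.16%, and 1 had an unadjusted p under 0.05; Src (−0.25) and Ptk2b (−0.24) had the largest differences there. From NP RESTwt to TN RESThet 11 rose and 6 fell, beside 73.1% called and 43.2% that rose, led by Ret (2.34), Cyfip2 (1.86), Wasf2 (−1.52) and Fyn (1.50).

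Other members of the cadherin superfamily were called in both directions. Of 38 measured, 4 rose and 0 fell at ES, 4 rose and 5 fell at NP and 1 fell at TN (Cdh20, −0.61), beside 9.24%, 8.03% and 1.16% of all genes called. Celsr3, a transmembrane cadherin needed for axon guidance, was 2.02 higher at ES (5.85 to 6.01 in RESTwt, 7.76 to 8.07 in RESTko) and 1.67 higher at NP (6.66 to 7.42 and 8.60 to 8.76), and did not differ beyond its spread at TN (8.57 to 8.65 in RESThet, 8.55 to 8.81 in RESTko). Cdh2, N-cadherin, was 0.80 higher at ES, Cdh10 0.47 and Cdh9 0.39. At NP Cdh3 (−1.37), Cdh1 (−1.15) and Cdh5 (−0.90), cadherins of epithelium and endothelium, fell, as did Cdh11 (−0.63) and Fat1 (−0.46). All 5 lie on chromosome 8. Cdh22 (0.68) rose. From NP RESTwt to TN RESThet 29 of the 38 rose and 5 fell, beside 73.1% called and 43.2% that rose, led by Cdh10 (4.51), Cdh13 (4.44), Clstn2 (4.30) and Clstn3 (4.20).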

How the data were processed

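Expression was measured on 24 arrays of 2 platforms. The authors deposited log2 probe-set signals, made with oligo 1.14.0 per the submitters' processing notes; background correction, summarization and normalization were not given in the sources used here, and the values were used unchanged. Of 35556 probe sets on the larger platform 21789 carried 1 gene symbol, 1621 several and 12146 none; 36 single-symbol probe sets (62 of 34958 on the other platform) belonged to Pcdh genes. In R 4.3.3, limma 3.58.1 (lmFit, eBayes) was fitted to all arrays of a platform with 1 mean per group, with Benjamini-Hochberg adjustment across genes within each of 11 comparisons. The fit was tested on simulated data with 200 changed genes, divided over sizes of 0.5, 1 and 2 (log2). For the genotype comparison at ES, 62.1% of the genes changed by 0.5 and 100% of those changed by 1 were recovered, and 7.41% of calls were false. For the mixed-strain step from ES to NP the recovered shares were 1.52% at 0.5 and 65.7% at 1, and 1.80% of calls were false. The number of arrays limits the precision.

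Named members were those called in a genotype comparison or interaction, up to 6 of largest rise and fall per class in a stage step, those of highest mean, and those within 0.02 of the threshold. The members and lists were chosen with earlier results of these data known. Alternatives were a replicate block, the compared groups alone, no dim genes, quantile normalization, median centring, the mean over probe sets, a variance trend and each array left out. Replicate letters were not taken to pair arrays.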

Additional observations from a re-analysis of the deposited data

Results flagged for a closer look

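The genotype difference changed between stages for 5 protocadherin genes, by a test of the change itself in limma with adjustment over all genes. From ES to NP it changed by −0.95 for Pcdh18, −0.89 for Pcdhb7 and −0.75 for Pcdhb22 (adjusted p of 0.031, 0.021 and 0.016). From NP to TN it changed by −0.65 for Pcdhb8 and 1.32 for Pcdhb9 (adjusted p of 0.023 and 0.00016). Pcdhb9 read about as low at NP as at ES, and the part of low signal in its change was not tested. The control is RESTwt at ES and NP and RESThet at TN, so stage and control genotype cannot be told apart in the second pair.

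A signal stood outside the members: the probe set of the larger platform that carries 14 Pcdha symbols, the isoforms of the alpha cluster, differed at NP by 0.99, with the arrays labelled RESTko higher (SE 0.15, limma adjusted p = 0.0015 over 35556 probe sets). It read 5.52, 4.70 and 5.07 in NP RESTwt and 6.23, 5.97 and 6.05 in NP RESTko, without overlap. At ES the difference was 0.14 and at TN 0.07, neither called. The call at NP was lost only in the fit of the NP arrays alone (adjusted p = 0.12) among the 11 alternatives run, which were added after seeing the data.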

How the results depend on the processing

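Counts of called members kept to within 1.5 times the full count in all 4 stage steps of the larger platform, in both steps of the mixed-strain course and in the genotype comparison at TN (6 of 34) under every alternative run. Over all genes the count at TN was 231, 50 with the compared groups alone and 117 to 205 with an array left out. The count at ES (2) was 1 with the compared groups alone, with the mean over probe sets and with a variance trend, and 0 to 1 with an array left out. Over all genes the count at ES was 1842. It was 1836, 1829 and 1984 in the same alternatives, in that order, and 1190 to 1777 with an array left out. The count at NP (11) was 0 with the compared groups alone and 5 to 10 with an array left out. Over all genes the count at NP was 1602, 549 with the compared groups alone and 872 to 1776 with an array left out. The interaction from ES to NP (3) gave 1 with the compared groups alone, 5 without the dimmest 30% of genes, 5 with median centring and 1 to 6 with an array left out. Over all genes it gave 970, 851 with the compared groups alone, 901 with median centring and 651 to 1136 with an array left out. Without the dimmest genes it gave 1069 of 13956. The interaction from NP to TN (2) gave 1 with the compared groups alone, 4 without the dimmest 30% of genes, 4 with quantile normalization, 4 with median centring and 1 to 5 with an array left out. Over all genes it gave 780, 436 with the compared groups alone, 764 with quantile normalization and 720 with median centring. It gave 871 of 13956 without the dimmest genes and 498 to 928 with an array left out. Pcdh20 from ES to NP in the arrays labelled RESTko changed sign with median centring, to −0.0082. Of 2009 values of members called in a stage step, 1988 kept their call, 20 lost it and 1 reversed; of 340 values of calls between genotypes, 276 kept and 64 lost it. In all of these the cause was not tested. With a replicate block the counts were 2 at ES, 11 at NP, 6 at TN, and 3 and 3 for the interactions. Over all genes they were 1756, 1646, 206, 949 and 757, in the same order. In no comparison with 3 pairs did the deviations of every pair of same-lettered arrays correlate above 0.1 (−0.26 to 0.40). The highest values were between genotypes at NP, with 0.40, 0.31 and 0.01 for replicates a, b and c. There a and b correlated best with their own letter, so some shared structure by letter is present in that comparison. From NP to TN in the arrays labelled RESTko the correlations were 0.15, 0.15 and 0.08, and there each array correlated best with its own letter. Of the clustered members, 21 of 22 on the larger platform and 23 of 23 on the other had a mean below that of the median gene.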

Other observations

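In the mixed-strain course the 3 probe sets that carry 14 Pcdha symbols rose by 5.08 to 6.29 from NP to TN, to signals of 8.31 to 9.51, and the 3 that carry 9 symbols differed by 0.26 to 0.76. On the larger platform the probe set with 14 Pcdha symbols rose by 1.33 from ES to NP in RESTwt and by 2.18 in the arrays labelled RESTko. From NP to TN it rose by 3.42 towards TN RESThet and by 2.50 in the arrays labelled RESTko, and the change of its genotype difference was −0.92 (limma adjusted p = 0.041, and above 0.05 in 12 of 17 alternatives, up to 0.13).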
